A study of Mus musculus with 8 samples.

Results

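The 42 genes described here are nuclear receptors of the mouse, taken by symbol from a table of 54427 genes. They cover the superfamily without the Nr4a genes and Nr5a2, and all 42 symbols are in the table. RNA was sequenced from primary pancreatic acinar cells of wild-type mice, isolated with collagenase. All received 1 µM cholecystokinin octapeptide (CCK), a secretagogue that injures acinar cells at high concentration, over 6 h. The 4 AP_OCA libraries are titled as injured cells given OCA, the common short name of the FXR agonist obeticholic acid, and the 4 AP libraries as injured cells without it. Both groups share the genotype, the cell isolation and the CCK exposure, and no uninjured group was analysed here. The label text gives 2.5 µM OCA in the same words for every library, AP included, so the difference between the groups rests on the titles. The age and sex of the mice, and whether replicates are separate animals or separate cultures, are not given in the sources used here, so p-values measure the spread between these libraries, which may be technical.

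Nuclear receptors are transcription factors that bind short DNA half-sites through zinc fingers, and most are switched by small lipophilic ligands. Many, among them FXR (Nr1h4), the LXRs, PPARs, retinoic acid receptors, thyroid hormone receptors and the vitamin D receptor, work as pairs with a retinoid X receptor (RXR). FXR senses bile acids and is best known in liver and intestine, where it induces Nr0b2 (SHP), a receptor with no DNA-binding domain that represses other factors.

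The promoters below belong to Nr1h4, the drug target, to Nr0b2, its best known target gene, and to Nr2c2, the receptor whose transcript passed the test without AP_OCA replicate 2. Each window is RefSeq sequence of build GRCm38.p6, from 250 bases before to 50 bases after an annotated start. It is written 5′ to 3′ on the gene's strand. In GENCODE annotation Nr1h4 and Nr2c2 begin further upstream, at positions 89533585 and 92091390. Their windows thus lie at a start inside the annotated gene, and the upstream starts were not looked at. Capitals mark matches on either strand to AGGTCA, the receptor half-site, to its variant GGGTCA, or to CACGTG, the E-box of clock factors, and no marked match overlaps another.
Nr1h4, chr10:89506609-89506908, minus strand: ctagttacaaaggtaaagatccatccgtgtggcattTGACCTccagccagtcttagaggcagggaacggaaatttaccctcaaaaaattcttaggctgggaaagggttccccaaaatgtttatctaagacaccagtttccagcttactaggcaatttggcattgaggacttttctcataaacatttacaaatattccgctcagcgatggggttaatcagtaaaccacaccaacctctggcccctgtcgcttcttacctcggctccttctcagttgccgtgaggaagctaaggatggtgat
Nr0b2, chr4:133553126-133553425, plus strand: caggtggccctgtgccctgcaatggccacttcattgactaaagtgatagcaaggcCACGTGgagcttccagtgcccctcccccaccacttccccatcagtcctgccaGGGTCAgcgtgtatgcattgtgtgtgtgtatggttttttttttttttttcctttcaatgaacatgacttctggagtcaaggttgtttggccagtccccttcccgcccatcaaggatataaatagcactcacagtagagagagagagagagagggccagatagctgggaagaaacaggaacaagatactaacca
Nr2c2, chr6:92092183-92092482, plus strand: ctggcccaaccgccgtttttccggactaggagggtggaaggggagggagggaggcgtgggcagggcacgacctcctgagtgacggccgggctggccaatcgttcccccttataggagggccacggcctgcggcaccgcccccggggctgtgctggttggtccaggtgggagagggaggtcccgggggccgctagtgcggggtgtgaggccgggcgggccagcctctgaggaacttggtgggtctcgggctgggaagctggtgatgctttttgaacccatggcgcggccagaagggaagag
The Nr1h4 window held 1 AGGTCA, at -214 from the start on the opposite strand. The Nr0b2 window held GGGTCA at -143 and CACGTG at -195, and the Nr2c2 window held none of the 3 words. Of the 42 receptors, 38 had a window, 58 windows in all. AGGTCA was in 19.0% of those 58 windows and in 16.3% of all 32851 windows, GGGTCA in 17.2% against 13.7%, and CACGTG in 10.3% against 7.15%. These are matches of letters, and nothing was measured at these sites here.

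Levels are given in CPM, counts brought to a fixed library sum: the deposited log2 values were returned to a linear scale, and the values of a library were made to sum to 1000000. The upper ends of the libraries have nearly 1 distribution, as after quantile normalisation, so a CPM value there is nearer to a rank than to a share of reads. The low ends differ, most of all in AP_OCA replicate 2. Low values fall on steps like whole counts, and the ordinal of a gene's step stands in below for a read count, since total reads are unknown here. Step 3, standing for a count of 3, the most that a listed 0 allows, lay at 0.206 to 0.313 CPM in 7 libraries. In AP_OCA replicate 2 it lay at 0.000455 CPM, and 65 steps fell at or under 1 CPM, against 9 to 14 in the other 7. The steps and low CPM values of that library are therefore on another scale, and ratios of its low values to those of the others are not measured folds.

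AP_OCA replicate 2 stood apart from the other 7 libraries. It correlated with them across genes at 0.561 to 0.635, while the others correlated with each other at 0.873 to 0.981, and it held 21010 genes above 0 where the others held 15394 to 16640. All 15 acinar markers, led by the digestive enzymes Ctrb1 and Pnlip, were above 0 in every library. In AP_OCA replicate 2, 10 of them were below the other 7 libraries and 1 was above. Their sum there was 426800 CPM, against 439800 to 490300 CPM in the other 7. Ctrb1 stood at 116500 CPM in every library, at the upper end where the libraries have nearly 1 distribution, so it cannot show a difference. Pnlip stood at 64530 CPM in AP_OCA replicate 2 and at either 60140 or 69030 to 69040 CPM in the others. The acinar sum includes such values, so its nearness between libraries says little about acinar content. Lymphocyte markers, led by Cd74 and Igkc, summed to 13090 CPM in AP_OCA replicate 2, to 23.0 to 45.6 CPM in the other 3 AP_OCA libraries and to 31.3 to 77.1 CPM in AP, where Cd3e, Cd3d and Cd3g were at 0 in all 4. Macrophage markers, led by Lyz2 and Cd14, summed to 1485 CPM, to 131.6 to 152.6 CPM and to 123.7 to 225.7 CPM in those sets of libraries, and fat and mesothelial markers, led by Cfd and Fabp4, to 466.4 CPM, 28.2 to 89.8 CPM and 13.3 to 35.2 CPM. In AP_OCA replicate 2, 14 of the 16 macrophage markers were above the other 7 libraries. Cd14 went the other way, at 27.6 CPM there against 43.7 to 61.55 CPM in the other 7. Islet markers, led by Ins2 and Ins1, summed to 27.9 CPM in AP_OCA replicate 2, 1274 to 1777 CPM in the other AP_OCA libraries and 531.9 to 2200 CPM in AP.

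Without AP_OCA replicate 2, 3 of 8 marker sums did not overlap between the groups. Among single genes, 23.2% of all 10894 tested did not overlap. Endothelial markers, led by Plvap and Eng, summed to 60.0 to 128.6 CPM in AP_OCA and 140.5 to 187.0 CPM in AP. Stellate and fibroblast markers, led by Sparc and Col3a1, summed to 177.2 to 279.9 CPM in AP_OCA and 284.5 to 357.4 CPM in AP. Taken singly, Plvap and Sparc overlapped between the groups, while Eng and Col3a1 did not and were lower in AP_OCA. Ductal markers, led by Krt19 and Muc1, summed to 445.5 to 531.4 CPM in AP_OCA and 338.6 to 413.0 CPM in AP. Krt19 was higher in AP_OCA, at 156.0 to 198.1 CPM against 83.5 to 144.1 CPM in AP. Muc1 overlapped, at 84.0 to 152.9 CPM in AP_OCA and 115.3 to 157.9 CPM in AP. Fewer cells of a type and less RNA per cell cannot be told apart in such bulk libraries. The part of these cell types in the differences below was not tested.

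Of the 42 receptors, 21 averaged at least 1 CPM over the 8 libraries, 15 averaged less but were above 0 somewhere, and 6 were listed at 0 throughout. In AP, 12 averaged 10 CPM or more. Levels per kilobase of annotated exon correct for length alone, so the order between genes is rough. The highest in AP were those of Nr2f6 at 10.7 ± 1.95, Rxrb at 9.42 ± 1.55, Nr1h2 at 9.12 ± 1.35, Nr1d1 at 6.63 ± 5.55 and Rxra at 5.75 ± 1.10 CPM per kb (SD, n = 4). Nr2f6 shares 1622 of its 2983 exonic bases with a gene on the opposite strand, and reads there cannot be told apart. Neighbours among those 5 differed by less than 1 SD, taking the larger SD of each pair. Nr0b2 followed at 4.17 ± 1.44 CPM per kb, and Nr1h4 was far down the order at 0.399 ± 0.334 CPM per kb. Nr2f2 was the lowest of the 22 receptors followed in every library, at 0.210 ± 0.0826 CPM per kb.

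**Figure D1:**
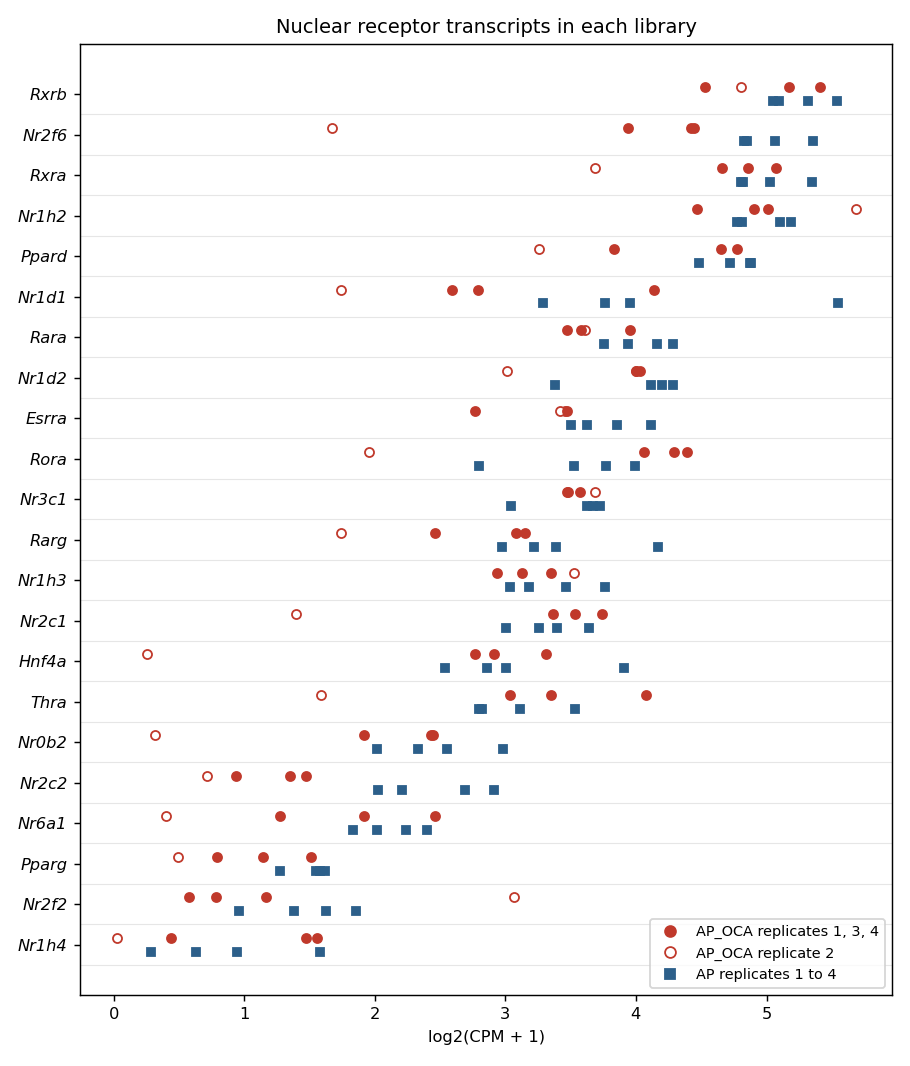
Level of each of 22 nuclear receptor transcripts as log2(CPM + 1), with 1 point per library: red circles for AP_OCA (open for replicate 2) and blue squares for AP. The open circle lies left of every other point for 14 of the 21 receptors averaging at least 1 CPM, and far right for Nr2f2, where AP_OCA replicate 2 had 7.36 CPM.

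AP_OCA replicate 2 was below the other 7 libraries for 14 of those 21 receptors (66.7%), against 36.9% of all 11311 genes tested, and above them for Nr1h2 and Nr2f2 (9.52%, against 32.5% of all genes). For 9 receptors its CPM was more than 2-fold below the lowest of the others (42.9%, against 20.4% of all genes). Those 9 were Thra, Nr1d1, Rora, Hnf4a, Rxra, Nr2c1, Nr2f6, Nr6a1 and Nr0b2. Low values of that library are on another scale, so for receptors at low levels these ratios are not measured folds. The shares over all genes were not matched for level. Comparisons are therefore given with and without that library. Both used limma on log2(CPM + 1) over every gene averaging at least 1 CPM, with p-values adjusted over all of them by the Benjamini-Hochberg method, and called genes at an adjusted p under 0.05. Every fold change is a log2 ratio of AP_OCA to AP.

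With all 8 libraries, none of the 21 receptors tested passed the threshold, nor did any of 11311 genes (0.0% called), and the smallest adjusted p of any gene was 0.199. At an unadjusted p under 0.05 there were 2 receptors, Nr2c2 and Nr2f6, beside 1830 genes (16.2%). With quality weights per library, which let limma count a discordant library less, 1052 genes and 1 receptor, Nr2c2, passed. Nr2c2, Nr2f6 and Esrra were lower in all 4 AP_OCA libraries than in any AP library, so the groups did not overlap for 3 receptors (14.3%), against 15.3% of all genes, 8.57% lower and 6.75% higher. The fold change was below 0 for 18 of 21 receptors (85.7%, against 50.9% of all genes), with a median of -0.43 on the log2 scale beside -0.01 over all genes. The library that lay low for 14 of the 21 is 1 of the 4 in that median.

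Without AP_OCA replicate 2, 1 of 22 receptors passed, Nr2c2, which was lower in AP_OCA. Over all 10894 genes 266 passed (2.44%), 0.854% of all genes as higher and 1.59% as lower. An unadjusted p under 0.05 was reached by 4 receptors, Nr2c2, Nr2f6, Rora and Esrra, while 25.7% of all genes reached it. The groups did not overlap for those same 4 (18.2%, against 23.2% of all genes), 3 of them lower in AP_OCA (background 12.1%) and 1 higher (background 11.1%). The fold change was below 0 for 17 of 22 receptors (77.3%, against 50.0% of all genes), and their median was -0.22 where that of all genes was -0.0001. That median was -0.12 with length and GC trends removed, and -0.03 with AP_OCA replicate 4 left out as well.

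**Figure D2:**
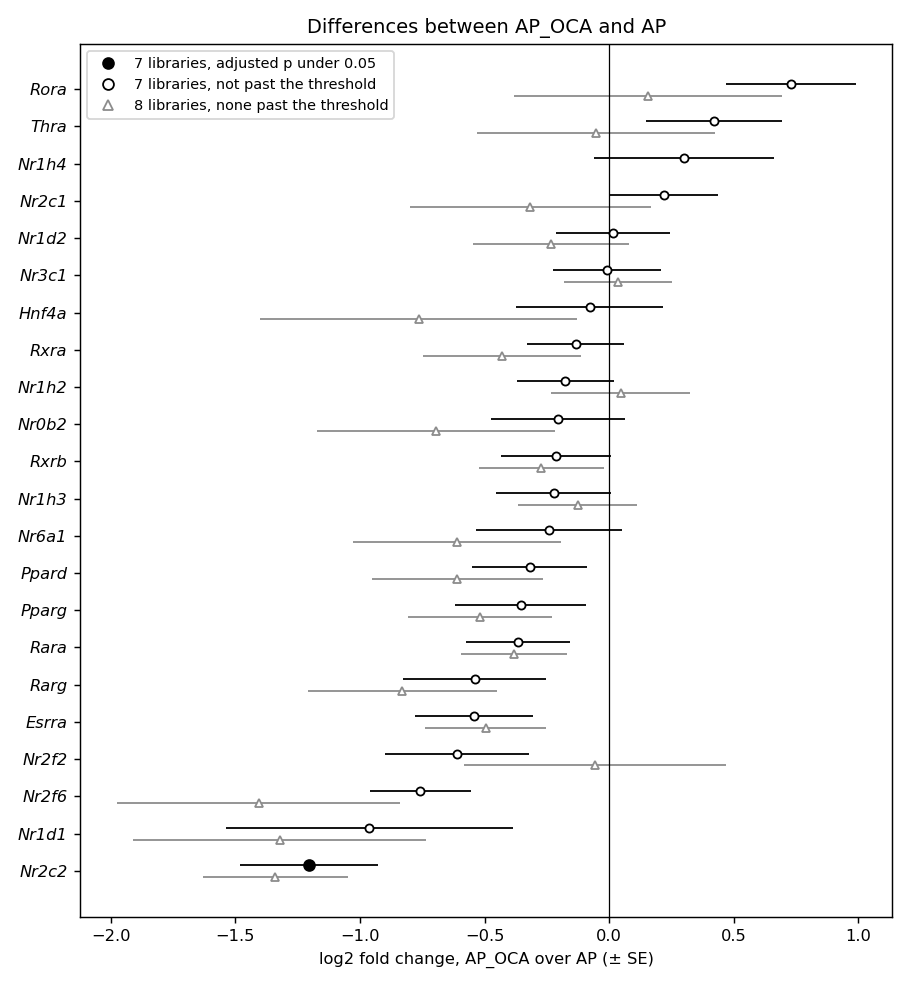
Log2 fold change of each receptor, AP_OCA over AP, with bars of 1 SE, over 7 libraries (circles) and over 8 (grey triangles), in order of the 7-library value. The filled circle of Nr2c2, at -1.20 ± 0.28, is the only one past an adjusted p of 0.05, and Nr1h4 was tested only over 7 libraries because its mean over 8 was under 1 CPM.

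Nr1h4, the bile acid receptor that OCA binds, was scarce. It was at 1.78, 0.0183, 1.94 and 0.358 CPM in AP_OCA replicates 1 to 4, against 0.546, 1.99, 0.925 and 0.219 CPM in AP replicates 1 to 4. AP_OCA replicate 2 was the lowest in CPM but not on steps, which are on another scale there. The other 3 AP_OCA libraries lay within the range of AP, with 2 high AP_OCA libraries and 1 high AP library. These levels stood on steps 22, 7, 19 and 5 in AP_OCA and 8, 26, 9 and 3 in AP, so few reads lay behind some of them. The log2 fold change over 7 libraries was 0.30 ± 0.36 (SE; adjusted p = 0.629), which missed the threshold.

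Nr0b2, which FXR induces in liver, was better measured. It was at 2.79, 0.245, 4.46 and 4.40 CPM in AP_OCA replicates 1 to 4, against 3.06, 4.04, 6.90 and 4.88 CPM in AP. AP_OCA replicate 2 was the lowest, 11.4-fold below the lowest other library in CPM, a ratio that the different scale of its low values affects. The remaining libraries overlapped. The log2 fold change was -0.21 ± 0.27 over 7 libraries (adjusted p = 0.658) and -0.69 ± 0.48 over 8 (adjusted p = 0.466).

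The RXRs, obligate partners of the lipid-sensing receptors, were present through 2 of their 3 genes. Rxra was at 32.7, 11.9, 28.02 and 24.3 CPM in AP_OCA replicates 1 to 4, against 31.6, 27.2, 39.8 and 26.9 CPM in AP. Rxrb was at 41.5, 26.9, 35.1 and 22.0 CPM in AP_OCA, against 32.1, 38.8, 45.6 and 33.2 CPM in AP. Both sets overlapped, and the fold changes over 7 libraries were -0.13 ± 0.19 for Rxra (adjusted p = 0.690) and -0.21 ± 0.22 for Rxrb (adjusted p = 0.562), each of which is above 0 with length and GC trends removed (0.23 and 0.13). Rxrg, a form of muscle and brain, was above 0 only in AP_OCA replicate 2, at 0.494 CPM.

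The oxysterol receptors LXRβ (Nr1h2) and LXRα (Nr1h3) control cholesterol efflux and fatty acid synthesis. Nr1h2 was at 28.9, 50.3, 31.3 and 21.1 CPM in AP_OCA replicates 1 to 4, against 26.4, 35.5, 33.3 and 27.1 CPM in AP. Nr1h3, which is abundant in macrophages and liver, was at 9.19, 10.5, 7.74 and 6.67 CPM in AP_OCA, against 8.08, 10.1, 12.6 and 7.18 CPM in AP. The groups overlapped for both genes. Nr1h2 was highest in AP_OCA replicate 2, the library with the raised macrophage sum, where Nr1h3 lay inside the range of the others. Over 7 libraries the fold changes were -0.18 ± 0.20 for Nr1h2 (adjusted p = 0.597) and -0.22 ± 0.23 for Nr1h3 (adjusted p = 0.563).

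Among the PPARs, receptors for fatty acids, Ppard led. It was at 26.4, 8.59, 24.1 and 13.2 CPM in AP_OCA replicates 1 to 4, against 28.3, 21.4, 25.3 and 28.4 CPM in AP. Replicates 2 and 4 of AP_OCA were the low ones, and the groups overlapped, with a fold change of -0.32 ± 0.23 over 7 libraries (adjusted p = 0.395). Pparg, the adipocyte regulator, was at 1.86, 0.407, 0.732 and 1.22 CPM in AP_OCA, against 1.42, 1.99, 2.07 and 1.94 CPM in AP, a fold change of -0.35 ± 0.26 (adjusted p = 0.409). Only AP_OCA replicate 1 reached the AP range of Pparg. Ppara, the receptor of liver fatty acid oxidation, was between 0.000350 and 0.818 CPM in AP_OCA and between 0.138 and 0.818 CPM in AP, too low to be tested.

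The retinoic acid receptors were carried by Rara and Rarg. Rara was at 10.1, 11.2, 10.96 and 14.5 CPM in AP_OCA replicates 1 to 4, against 16.9, 14.3, 18.5 and 12.5 CPM in AP. Rarg was at 7.48, 2.34, 7.86 and 4.51 CPM in AP_OCA, against 8.34, 6.85, 16.95 and 9.49 CPM in AP. In both, most AP_OCA libraries sat under most AP libraries, but the groups overlapped. The fold changes over 7 libraries were -0.37 ± 0.21 for Rara (adjusted p = 0.284) and -0.54 ± 0.29 for Rarg (adjusted p = 0.247). Rarb, itself a target of retinoic acid, was above 0 in 1 AP_OCA library, at 0.0603 CPM, and in 1 AP library, at 0.138 CPM.

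The thyroid hormone receptors were represented mainly by Thra. It was at 9.19, 2.01, 7.20 and 15.9 CPM in AP_OCA replicates 1 to 4, against 5.95, 7.66, 10.6 and 6.09 CPM in AP, with overlapping groups. Its fold change was 0.42 ± 0.27 over 7 libraries (adjusted p = 0.341) and -0.05 ± 0.48 over 8 (adjusted p = 0.960). Thra shares 263 exonic bases with Nr1d1 on the opposite strand, and the strand setting of the count is not given in the sources used here, so reads there cannot be told apart.

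Thrb averaged under 1 CPM and was not tested. It was at 0.911, 0.130, 1.24 and 2.08 CPM in AP_OCA, against 0.832, 0.494, 0.421 and 0.530 CPM in AP. Every AP_OCA library but replicate 2 was above all 4 AP libraries, at steps of 11 to 22 against 4 to 12. The vitamin D receptor gene Vdr showed the other order at similar depth. It was at 0, 2.23, 0.312 and 0.0122 CPM in AP_OCA replicates 1 to 4, against 1.20, 0.314, 0.725 and 0.903 CPM in AP. AP_OCA replicate 2 was the highest library for Vdr. The other 3 AP_OCA libraries were at or under step 3, against steps 17, 4, 7 and 12 in AP. AP_OCA replicate 3, at 0.312 CPM on step 3, lay barely under AP replicate 2, at 0.314 CPM on step 4. Steps are ranked within each library, so this separation is close to a tie at low depth. Without AP_OCA replicate 2 the groups did not overlap for 23.2% of all genes tested, which include neither Thrb nor Vdr.

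The clock receptors Nr1d1 and Nr1d2 (REV-ERBα and β) repress, and Rora (RORα) activates, through shared response elements. Nr1d1 was at 5.04, 2.34, 16.6 and 5.94 CPM in AP_OCA replicates 1 to 4, against 14.5, 8.78, 45.8 and 12.6 CPM in AP. Replicate 3 was the highest library of each group, and AP replicate 3 was far above the other AP libraries. The spread left a fold change of -0.96 ± 0.58 over 7 libraries (adjusted p = 0.326). Nr1d2 was at 14.99, 7.07, 15.01 and 15.4 CPM in AP_OCA, against 16.3, 17.4, 9.40 and 18.5 CPM in AP. Its fold change was 0.02 ± 0.23 (adjusted p = 0.972), and AP replicate 3, high in Nr1d1, was the lowest AP library here.

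Rora was at 15.7, 2.89, 18.6 and 20.0 CPM in AP_OCA replicates 1 to 4, against 10.5, 12.6, 5.95 and 14.9 CPM in AP. AP_OCA replicates 1, 3 and 4 were all above the AP libraries, and replicate 2 was below them all. The fold change was 0.73 ± 0.26 over 7 libraries (unadjusted p = 0.0139, adjusted p = 0.108) and 0.16 ± 0.54 over 8 (adjusted p = 0.893). Rorb, a neuronal relative, was above 0 in AP_OCA replicate 4 alone, at 0.0122 CPM.

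Nr2c2 encodes TR4 and Nr2c1 encodes TR2, paired orphan receptors that bind direct repeats of the half-site and can repress retinoid and thyroid hormone signalling. Nr2c2 was at 1.78, 0.640, 1.56 and 0.917 CPM in AP_OCA replicates 1 to 4, against 5.45, 3.07, 3.63 and 6.55 CPM in AP. Every AP_OCA library was below every AP library. On steps, these were 22, 46, 15 and 11 in AP_OCA and 77, 41, 38 and 96 in AP. AP_OCA replicate 2, whose steps are on another scale, was thus below every AP library in CPM but not on steps. Without AP_OCA replicate 2 the means were 1.42 ± 0.449 CPM in AP_OCA (SD, n = 3) and 4.67 ± 1.61 CPM in AP (SD, n = 4). The log2 fold change was -1.20 ± 0.28 (unadjusted p = 0.000676, adjusted p = 0.0449). Over 8 libraries it was -1.34 ± 0.29 (unadjusted p = 0.00123, adjusted p = 0.260).

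The Nr2c2 call sat close to the threshold. It held without AP_OCA replicate 1 (adjusted p = 0.0269). It was lost without AP_OCA replicate 3 (adjusted p = 0.0789), AP_OCA replicate 4 (0.0954), AP replicate 1 (0.122), AP replicate 2 (0.0659), AP replicate 3 (0.0701) or AP replicate 4 (0.124). The fold change itself ran from -1.35 to -1.04 over those 7 fits. Nr2c2 shares 4590 of its 14935 exonic bases with Mrps25 on the opposite strand, a mitochondrial ribosomal protein gene whose own fold change was 0.05 ± 0.30 (adjusted p = 0.935). The endothelial and stellate sums were also lower in AP_OCA, and their part in the Nr2c2 difference was not tested.

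Its partner Nr2c1 was at 10.6, 1.63, 12.4 and 9.30 CPM in AP_OCA replicates 1 to 4, against 7.01, 8.59, 11.5 and 9.53 CPM in AP. Apart from AP_OCA replicate 2 the groups shared a range, with a fold change of 0.22 ± 0.22 over 7 libraries (adjusted p = 0.539).

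**Figure D3:**
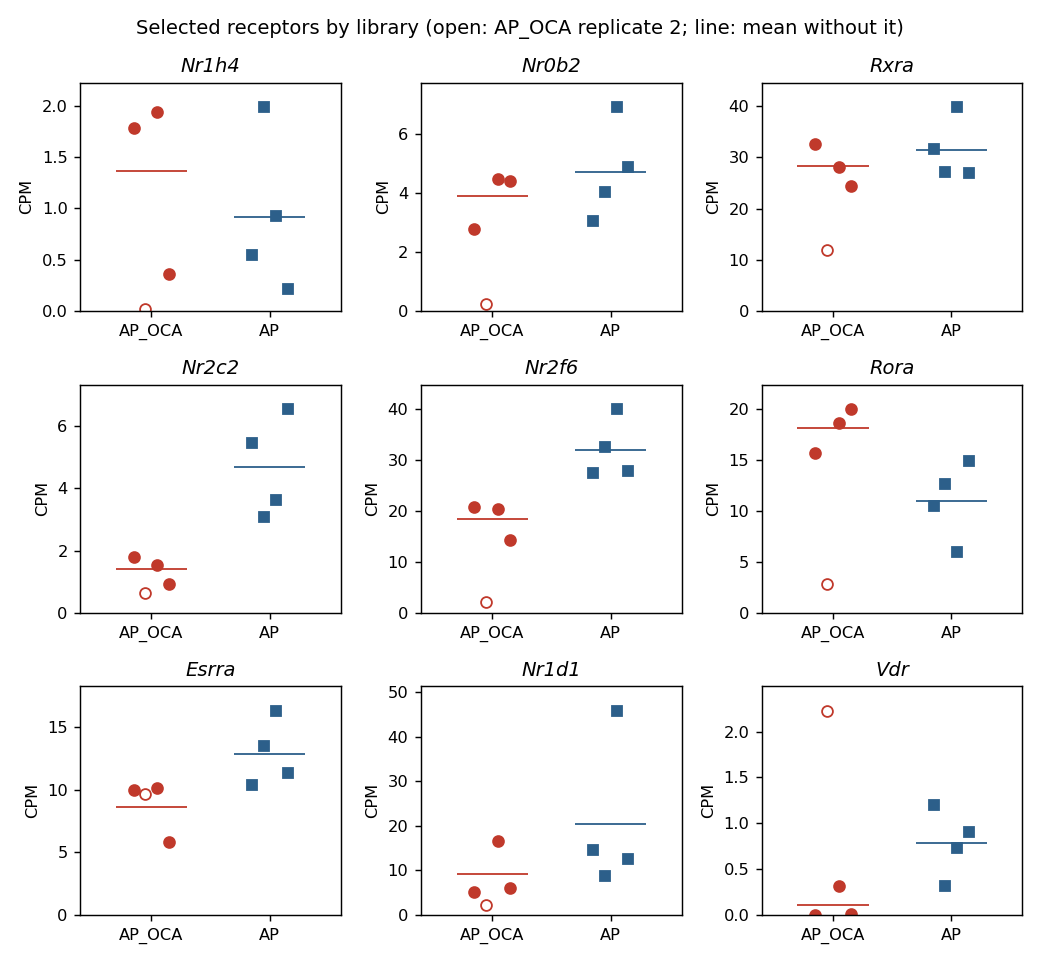
CPM of 9 receptors in each library, AP_OCA left and AP right, with a line at the group mean without AP_OCA replicate 2 (open circle); each panel has its own linear axis from 0. Nr2c2, Nr2f6 and Esrra have no AP_OCA point inside the AP range, Rora separates only without the open circle, and Nr1h4 and Nr0b2 overlap.

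The COUP-TF family holds Nr2f1, Nr2f2 and Nr2f6. Nr2f6 (EAR2), an orphan repressor, was at 20.8, 2.19, 20.4 and 14.4 CPM in AP_OCA replicates 1 to 4, against 27.5, 32.5, 40.0 and 27.9 CPM in AP. No AP_OCA library reached an AP library. The fold change was -0.76 ± 0.20 over 7 libraries (unadjusted p = 0.00214, adjusted p = 0.0576) and -1.41 ± 0.57 over 8 (unadjusted p = 0.0346, adjusted p = 0.286), so it missed the threshold in both, and it passed over 7 with quality weights (adjusted p = 0.0199) or without AP_OCA replicate 1 (adjusted p = 0.0383). Nr2f6 shares 1622 of 2983 exonic bases with the antisense gene Ocel1, whose fold change was -0.06 ± 0.20 (adjusted p = 0.870).

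Nr2f2 (COUP-TFII), a gene of veins and stroma, was at 0.494, 7.36, 1.24 and 0.725 CPM in AP_OCA replicates 1 to 4, against 2.08, 2.62, 1.604 and 0.947 CPM in AP. AP_OCA replicate 2 had 2.80 times the highest other library, and its endothelial sum of 343.8 CPM and stellate sum of 923.8 CPM were also the highest of the 8. Over the other 7 libraries the fold change was -0.61 ± 0.29 (adjusted p = 0.198), with overlapping groups. In those libraries the endothelial and stellate sums given above were lower in AP_OCA as well, and their part in the Nr2f2 values was not tested. Nr2f1 was at 0.130, 0.460, 0 and 0.725 CPM in AP_OCA replicates 1 to 4 and was listed at 0 in all 4 AP libraries.

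Hnf4a, a master regulator of gut, liver and pancreatic epithelium, was at 6.55, 0.195, 8.92 and 5.82 CPM in AP_OCA replicates 1 to 4, against 7.01, 4.81, 6.27 and 14.03 CPM in AP. AP_OCA replicate 2 was the lowest, 24.7-fold under the lowest other library in CPM, a ratio that the different scale of its low values affects. The others overlapped, with a fold change of -0.08 ± 0.30 (adjusted p = 0.893) over 7 libraries. Ductal markers, 49.8 CPM in sum in AP_OCA replicate 2, were at their lowest in the same library. Hnf4g, its intestinal relative, did not exceed 0.218 CPM in AP_OCA or 0.314 CPM in AP.

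The oestrogen-related receptor Esrra (ERRα), a regulator of mitochondrial genes, was at 9.99, 9.69, 10.1 and 5.82 CPM in AP_OCA replicates 1 to 4, against 10.4, 13.5, 16.3 and 11.4 CPM in AP. Every AP_OCA library was below every AP library, though the highest AP_OCA value of 10.1 CPM lay close under the lowest AP value of 10.4 CPM. The fold change was -0.54 ± 0.24 over 7 libraries (unadjusted p = 0.0384, adjusted p = 0.170) and -0.50 ± 0.24 over 8 (adjusted p = 0.339). Esrrg was above 0 in AP_OCA replicates 2 and 4 and AP replicate 1, at no more than 0.358 CPM, and Esrrb in AP_OCA replicate 2 alone, at 0.000350 CPM.

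Of the steroid receptors, only the glucocorticoid receptor gene Nr3c1 was abundant enough to be tested. It was at 10.9, 11.9, 10.1 and 10.2 CPM in AP_OCA replicates 1 to 4, against 11.8, 11.3, 7.25 and 12.2 CPM in AP. AP_OCA replicate 2 lay within the range of the rest for this gene, and the fold change was -0.01 ± 0.22 over 7 libraries (adjusted p = 0.983). The mineralocorticoid receptor gene Nr3c2 was between 0.113 and 1.99 CPM in AP_OCA and between 0 and 0.494 CPM in AP, the highest value being that of AP_OCA replicate 4. Esr1, an oestrogen receptor gene, reached 0.609 CPM in AP_OCA, in replicate 2, and 0.421 CPM in AP.

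Nr6a1 (GCNF), an orphan receptor of germ cells and early embryos, was at 4.49, 0.319, 2.77 and 1.42 CPM in AP_OCA replicates 1 to 4, against 3.06, 2.56, 3.71 and 4.28 CPM in AP. The groups overlapped, and the fold change was -0.24 ± 0.29 over 7 libraries (adjusted p = 0.630). Nr5a1, the steroidogenic factor of adrenal and gonad, was above 0 in AP_OCA replicate 2, at 0.000350 CPM, and in AP replicate 3, at 0.219 CPM. The xenobiotic receptor gene Nr1i3 (CAR) was above 0 only in AP replicate 2, at 0.138 CPM. The 6 receptors listed at 0 in all 8 libraries were Nr1i2 (PXR), the retinal and neural factors Nr2e1 and Nr2e3, Esr2, Pgr and Nr0b1 (DAX-1).

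The genes that these receptors control, and the proteins they work through, were followed in 12 lists. Over 8 libraries no gene of any list passed, and the list medians ran from -0.62 to 0.25. With quality weights over 8 libraries, 1052 of all 11311 genes passed. So did 7 of 28 coactivator genes, 5 of 19 glucocorticoid receptor targets, 3 of 18 LXR targets, 3 of 27 PPAR targets and 3 of 19 ERR list genes. In the same fit 2 of 15 clock genes, 2 of 12 retinoid list genes and 2 of 13 chaperones passed. None passed in the FXR list, the thyroid hormone and vitamin D list or the PXR and CAR list. The values that follow are over 7 libraries, with means ± SD in CPM for AP_OCA (n = 3) and AP (n = 4). In that fit 2.44% of all 10894 genes passed, 0.854% as higher and 1.59% as lower.

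None of 15 tested genes among 34 FXR targets and bile acid transporters passed, and their median was -0.28. It was -0.02 without AP_OCA replicate 4, -0.12 with length and GC trends removed, and -0.08 with quality weights. The 3 with the lowest p were Pltp, Scarb1 and Insig2. The phospholipid transfer protein gene Pltp was at 2.31 ± 1.02 CPM in AP_OCA and 4.58 ± 1.55 CPM in AP (adjusted p = 0.128). Scarb1, the HDL receptor, was at 20.1 ± 6.04 CPM in AP_OCA and 28.8 ± 4.77 CPM in AP (adjusted p = 0.162), and Insig2, a brake on sterol synthesis, at 12.6 ± 3.01 CPM and 17.5 ± 1.04 CPM (adjusted p = 0.163).

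None of 18 LXR targets passed either, with a median of -0.19. Fatty acid synthase, Fasn, was at 46.2 ± 13.2 CPM in AP_OCA and 74.6 ± 11.4 CPM in AP (adjusted p = 0.0729). The cholesterol exporter Abcg1 was at 2.11 ± 1.11 CPM in AP_OCA and 4.59 ± 0.693 CPM in AP (adjusted p = 0.0734), and at 23.1 CPM in AP_OCA replicate 2. Nampt, of NAD synthesis, was at 24.6 ± 7.65 CPM in AP_OCA and 13.4 ± 3.14 CPM in AP (adjusted p = 0.0773).

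Of 36 PPAR targets, 25 were tested, none passed, and the median was 0.15. The fat cell genes Fabp4 and Plin4 were at 36.1 ± 15.7 CPM and 2.99 ± 1.01 CPM in AP_OCA, against 15.9 ± 7.93 CPM and 1.23 ± 0.882 CPM in AP (adjusted p = 0.0685 and 0.108). Fabp4 is itself one of the fat markers.

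Among 22 glucocorticoid receptor targets 19 were tested, with a median of -0.39. Of these, 2 rose and 1 fell, beside 0.854% and 1.59% of all genes. Lcn2, a secreted iron-siderophore carrier, rose to 174.3 ± 29.8 CPM in AP_OCA, against 91.8 ± 12.7 CPM in AP (fold change 0.91 ± 0.18, adjusted p = 0.0285). Fkbp5, a co-chaperone of steroid receptors, rose to 42.5 ± 4.54 CPM in AP_OCA, against 24.2 ± 3.50 CPM in AP (fold change 0.80 ± 0.18, adjusted p = 0.0435). Nfkbia, the inhibitor of NF-κB, fell to 18.1 ± 4.77 CPM in AP_OCA, against 34.0 ± 6.45 CPM in AP (fold change -0.89 ± 0.22, adjusted p = 0.0488), but was at 63.7 CPM in AP_OCA replicate 2. Lcn2 and Nfkbia are also inflammatory genes.

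Of 20 circadian clock genes 15 were tested, with a median of -0.16, and 1 fell, beside 1.59% of all genes. Nfil3, a repressor that REV-ERBα controls, fell to 156.7 ± 30.9 CPM in AP_OCA, against 296.7 ± 45.6 CPM in AP (fold change -0.93 ± 0.19, adjusted p = 0.0316). Per1 was at 21.9 ± 5.22 CPM in AP_OCA and 36.1 ± 7.72 CPM in AP (adjusted p = 0.0802), and Cry2 at 16.8 ± 4.86 CPM in AP_OCA and 9.54 ± 3.49 CPM in AP (adjusted p = 0.105).

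In the retinoid list 10 of 22 genes were tested, with a median of 0.06, and 1 fell, beside 1.59% of all genes. Tgm2, a transglutaminase that retinoic acid induces, fell to 37.4 ± 5.50 CPM in AP_OCA, against 61.5 ± 6.31 CPM in AP (fold change -0.71 ± 0.18, adjusted p = 0.0495), but was at 126.9 CPM in AP_OCA replicate 2. The retinoic acid synthesis genes Aldh1a2 and Rdh10 were at 5.13 ± 1.40 CPM and 3.93 ± 2.08 CPM in AP_OCA, against 9.60 ± 1.42 CPM and 7.07 ± 2.08 CPM in AP (adjusted p = 0.0643 and 0.150).

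In the thyroid hormone and vitamin D list 11 of 17 were tested, with a median of 0.03, and in the PXR and CAR list 6 of 16, with a median of 0.03, and no gene of either passed. Among the thyroid and vitamin D genes, Klf9 had an adjusted p of 0.225 and Dio2 of 0.266. Alas1, Gstm1 and Cyp3a13 had the lowest of the xenobiotic ones (adjusted p = 0.151, 0.204 and 0.230).

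Of 22 ERR targets and PGC-1 family genes 20 were tested, with a median of 0.20, and 1 fell, beside 1.59% of all genes. Pprc1, a PGC-1-related coactivator of mitochondrial genes, fell to 73.8 ± 9.26 CPM in AP_OCA, against 132.8 ± 11.6 CPM in AP (fold change -0.84 ± 0.17, adjusted p = 0.0285). Cycs, cytochrome c, was at 35.2 ± 8.63 CPM in AP_OCA and 20.2 ± 1.71 CPM in AP (adjusted p = 0.0531), and Mfn2, of mitochondrial fusion, at 14.5 ± 1.58 CPM in AP_OCA and 22.9 ± 3.77 CPM in AP (adjusted p = 0.0816).

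None of 28 tested coactivator genes passed, with a median of -0.23. Kmt2d, Ncoa5 and Smarca4, which open or mark chromatin or bind the receptors, were at 22.9 ± 7.42, 8.49 ± 2.07 and 16.2 ± 5.12 CPM in AP_OCA, against 41.0 ± 8.29, 15.5 ± 2.99 and 26.7 ± 2.56 CPM in AP (adjusted p = 0.0582, 0.0606 and 0.0729).

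Of 29 corepressor genes 25 were tested, with a median of -0.05. Mta2 and Tbl1xr1, subunits of corepressor complexes, had adjusted p-values of 0.137 and 0.168.

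All 13 steroid receptor chaperones were tested, with a median of 0.21, and 2 rose, beside 0.854% of all genes. The median was 0.04 without AP_OCA replicate 4, 0.004 with length and GC trends removed, and 0.02 with quality weights. Hsp90b1 rose to 127.2 ± 31.5 CPM in AP_OCA, against 28.7 ± 12.6 CPM in AP (fold change 2.23 ± 0.41, adjusted p = 0.0403), and was at 125.1 CPM in AP_OCA replicate 2. It encodes the form of HSP90 in the endoplasmic reticulum lumen, while the cytosolic form Hsp90ab1, which holds steroid receptors, was at 437.8 ± 157.7 CPM in AP_OCA and 641.6 ± 31.1 CPM in AP (adjusted p = 0.113). Fkbp5, given above, counts in this list as well.

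The 7 list genes described above as risen or fallen, Lcn2, Fkbp5, Nfkbia, Nfil3, Tgm2, Pprc1 and Hsp90b1, kept the call in 6 to 11 of 18 alternatives each, 6 for Tgm2, 8 for Nfkbia, 9 for Pprc1, 10 for Fkbp5 and 11 for the others. All 7 lost it without AP replicate 1, AP replicate 2, AP replicate 4 or AP_OCA replicate 3, and all but Hsp90b1 without AP replicate 3. Hsp90b1, Nfkbia and Tgm2 also lost it without AP_OCA replicate 4, and all 7 kept it without AP_OCA replicate 1. Over these fits the highest adjusted p was 0.0944 for Lcn2, 0.114 for Fkbp5, 0.131 for Nfkbia, 0.0933 for Nfil3, 0.124 for Tgm2, 0.0974 for Pprc1 and 0.181 for Hsp90b1. The fold change kept its sign in each of those fits. All 7 also lost the call with no filter on low values and without the mean-variance trend. With length and GC trends removed, Tgm2 (adjusted p = 0.141) and Pprc1 (adjusted p = 0.0727) lost it, and with a pseudocount of 0.1, Tgm2 and Nfkbia (adjusted p = 0.0557 for each).

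The other list medians moved as well with 1 further library left out. They ran from 0.03 to 0.26 for the ERR list, 0.03 to 0.18 for PPAR targets, -0.35 to -0.16 for LXR targets, -0.33 to -0.14 for clock genes, -0.44 to -0.23 for glucocorticoid receptor targets, -0.27 to -0.14 for coactivators and -0.14 to -0.001 for corepressors. Those of the retinoid list (-0.06 to 0.12), the thyroid hormone and vitamin D list (-0.06 to 0.22) and the PXR and CAR list (-0.03 to 0.18) changed sign.

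**Figure D4:**
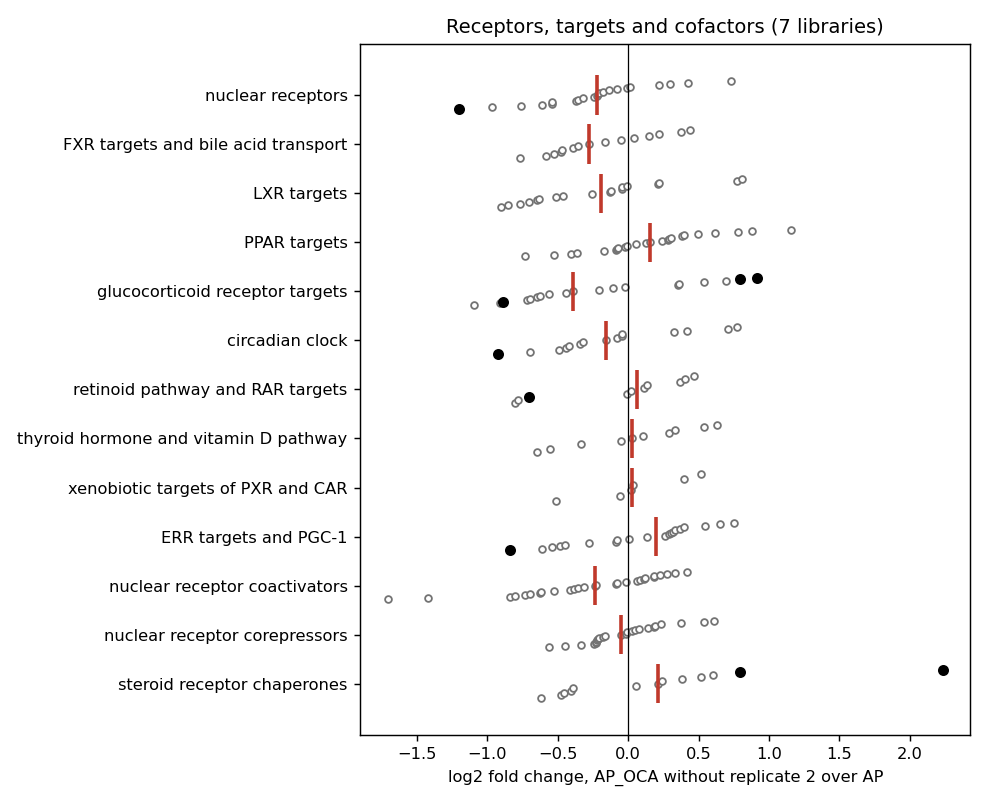
Log2 fold change, AP_OCA without replicate 2 over AP, of the tested genes reported here (circles) of the receptor set and 12 lists, with black circles past an adjusted p of 0.05 and a red bar at the median of all tested genes of a list. The medians lie between -0.39 for glucocorticoid receptor targets and 0.21 for steroid receptor chaperones, and no list has more than 3 black circles.

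**Figure D5:**
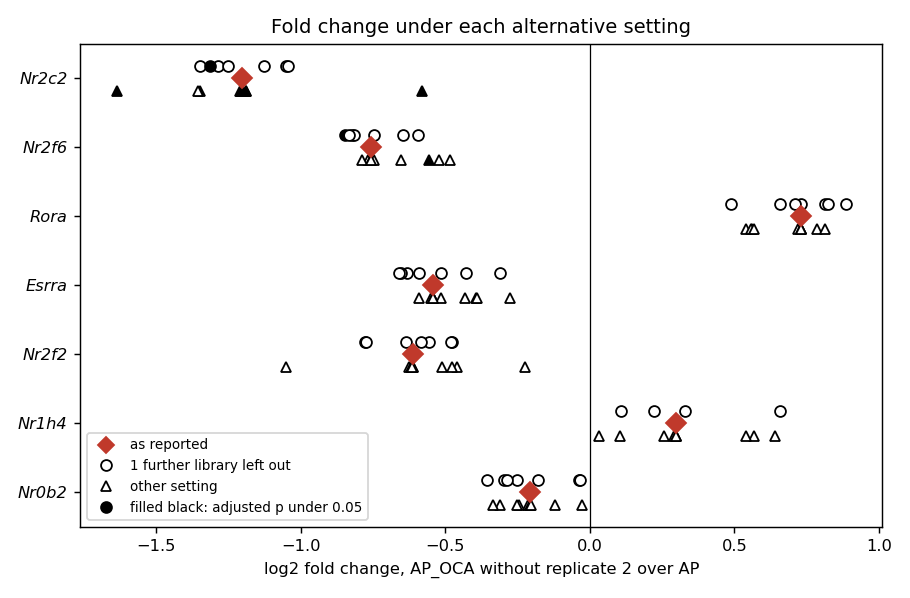
Log2 fold change over 7 libraries of 7 receptors as reported (diamond), with 1 further library left out (circles) and under other settings (triangles), black where the adjusted p was under 0.05. Nr2c2 stays left of 0 in every fit, between -1.64 and -0.58, but is black in 8 of 17.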

How the data were processed

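The authors deposited 1 table of log2 values for 8 libraries made with a SMARTER kit, per the labels' protocols, and mapped to build mm10, per the submitters' processing notes. The aligner, counter, strand setting and annotation are not given in the sources used here. The lowest log2 value in every library was -6.64, the log2 of 0.01, and the highest was 20.57 in each. Here the values were returned to linear, 0.01 was removed, the values of a library were made to sum to 1000000 (CPM), and limma (version 3.58.1, R 4.3.3; trend and robust moderation) was run on log2(CPM + 1) of genes averaging at least 1 CPM. The main fit over 7 libraries was first tested on simulated data with independent normal noise. The 8-library fit and the alternatives were not tested in that way. With all 8 libraries and with 7, AP_OCA was tested against AP, Benjamini-Hochberg adjusted over all genes. No pairing of the replicate numbers is stated in the sources used here, so the main fits used no block.

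The receptors, lists and markers, and the fit without AP_OCA replicate 2, were chosen with earlier results of these data known. Receptors averaging 1 CPM or more, with Nr1h4 and Nr0b2, are given in every library. The 3 lowest p-values of each list and the 2 most abundant genes of each marker list are named. The results of 3 genes that this rule takes are not reported here. GENCODE annotation of the same build gave exon lengths, overlaps and GC content, matched by symbol for 53749 of 54427 genes and all 42 receptors. Alternatives were other filters, pseudocounts, scalings, models, weights and left-out libraries.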

Additional observations from a re-analysis of the deposited data

Results flagged for a closer look

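Within-group gaps were screened for 22 receptors in both groups, and 4 of 44 sets of libraries held a library far from the other 3. Chance alone would single out about 1 set in 20. Nr1d2 in AP_OCA was lowest in replicate 2, at 7.07 CPM against 14.99 to 15.4 CPM in the other AP_OCA libraries. Nr2f2 in AP_OCA was highest in replicate 2, at 7.36 CPM against 0.494 to 1.24 CPM. Esrra in AP_OCA was lowest in replicate 4, at 5.82 CPM against 9.69 to 10.1 CPM. Nr1d1 in AP was highest in replicate 3, at 45.8 CPM against 8.78 to 14.5 CPM in the other AP libraries.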

How the results depend on the processing

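The single receptor call depended on the libraries included and on the filter. Over 8 libraries, the number of genes past the threshold stayed at 0 except with quality weights (1052 genes and 1 receptor), and with each library left out it ran from 0 to 266 genes and from 0 to 1 receptor. Over 7 libraries the 266 genes became 156 with a pseudocount of 0.1, 13 without the mean-variance trend, 1675 with quality weights and 0 with no filter on low values. The 1 receptor became 0 with no filter, without the trend and with a minimum mean of 5 CPM, which drops Nr2c2, and 2 with quality weights, where Nr2f6 joined Nr2c2. With each library left out, the counts ran from 7 to 973 genes and from 0 to 2 receptors, the highest being those without AP_OCA replicate 1. Without a filter 36 receptors were tested over 8 libraries and 34 over 7. For Nr2c2 the adjusted p over 7 libraries ran from 0.00395 to 0.191 over the 17 alternatives that tested it.

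Same-numbered libraries deviated from their group means with correlations of -0.166, 0.034, 0.116 and -0.026. The AP_OCA means include replicate 2, which stands apart, so these values cannot show whether the libraries were paired. The numbers were not taken as pairs because no source used here states a pairing. The replicate block raised the 7-library count to 559 genes and 2 receptors, Nr1d1 (adjusted p = 0.00683) joining Nr2c2, and moved Nr3c1 to 0.028. With length and GC trends removed as well as the block, 51 genes and 0 receptors passed. Of the 7 list genes described above, Fkbp5 (adjusted p = 0.0858) and Tgm2 (0.0774) were not past the threshold with the block, and with the block and the trends removed Nfkbia (0.0561), Pprc1 (0.184) and Tgm2 (0.354) were not.

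The fold changes that changed sign were past the threshold in no fit. Over 8 libraries a pseudocount of 5 gave 0.022 for Thra and 0.049 for Nr2f2. Quality weights gave -0.12 for Nr3c1, 0.36 for Nr2c1 and 0.27 for Thra. Removal of length and GC trends gave 0.19 for Rxrb, 0.003 for Rxra, 0.055 for Rara, -0.051 for Rora, -0.12 for Nr3c1 and 0.42 for Thra, and the same values with the replicate block. With each library left out, fold changes over 8 libraries ran from -0.61 to 0.22 for Nr2f2, -0.18 to 0.23 for Nr1h2, -0.44 to 0.016 for Nr1d2, -0.12 to 0.11 for Nr3c1, -0.56 to 0.22 for Nr2c1, -0.41 to 0.42 for Thra, -0.085 to 0.73 for Rora and -0.24 to 0.008 for Nr1h3. Over 7 libraries, removal of length and GC trends gave 0.13 for Rxrb, 0.093 for Nr1h2, 0.23 for Rxra, -0.18 for Nr1d2 and 0.18 for Hnf4a, and together with the replicate block 0.18, 0.20, 0.21, -0.15 and 0.025 for those genes in the same order. Quality weights gave 0.001 for Rxrb, 0.015 for Nr1h2, -0.14 for Nr1d2 and 0.025 for Hnf4a. With 1 more library left out, values ran from -0.17 to 0.061 for Nr3c1, -0.40 to 0.041 for Rxrb, -0.26 to 0.20 for Hnf4a, -0.53 to 0.064 for Nr6a1 and -0.19 to 0.11 for Nr1d2. The cause of these changes was not tested. Depth limits the receptors under 1 CPM most, where a level rests on a few steps, and such limits cover counting error only.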
